A study of Mus musculus with 12 samples.

Results

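Expression of 38 axon guidance genes was followed in heart ventricles of mouse embryos, with the genes chosen by name from the semaphorin, plexin, neuropilin, Slit, Robo, ephrin, Eph receptor, netrin and Unc5 families. All 38 were found in the count table, once each, among 40800 gene IDs. The libraries are bulk RNA-seq of ventricles dissected at embryonic day 12.5, 6 from embryos of control genotype and 6 of the genotype given as Wnt gain of function. Neither the engineered allele nor the Cre driver that raises Wnt activity is named in the labels, and the genetic background of the controls, any treatment and the number of embryos per library are not given there either. No label says that the libraries of a group come from separate embryos, so p-values measure only the spread among them, which may be technical.

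Guidance genes encode ligands and receptors that attract or repel a moving cell or growing axon. Secreted class 3 semaphorins bind neuropilins, which signal through plexins, Slit proteins bind Robo receptors, ephrins bind Eph receptor kinases on a neighbouring cell, and netrins bind receptors that include the Unc5 proteins. In the developing heart the same molecules are known for roles in outflow tract septation, in coronary and endocardial vessel growth, in valve formation and in the approach of cardiac nerves.

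The deposited counts summed to 10130088 to 17526325 per library, and the 38 genes took 0.196% to 0.232% of the counts of a library. As a check of the labels, Axin2, a feedback inhibitor and standard readout of Wnt signalling, was at 1.39 to 4.13 CPM in the control libraries (median 3.33) and 3.77 to 26.0 CPM in the Wnt gain-of-function libraries (median 20.2), a log2 fold change of 2.62 ± 0.404 (SE, edgeR adjusted p = 0.0145). The library labelled Wnt gain-of-function replicate 5 stood apart, with 3.77 CPM of Axin2, inside the control range, whereas the other 5 had at least 14.9 CPM. Notum, another Wnt feedback gene, had a log2 fold change of 4.84 ± 0.646 (SE, edgeR adjusted p = 0.0095). Its level in replicate 5 was 1.18 CPM against at least 12.9 CPM in the other 5 and at most 0.874 CPM in controls. The Axin2 level of this library goes against its label, so its genotype is in doubt; it was kept in the group of its label, and statements about all 6 Wnt gain-of-function libraries hold for the labels. Ctnnb1, which encodes the Wnt effector beta-catenin, was at 279 and 288 CPM in the control and Wnt gain-of-function means (edgeR adjusted p = 0.999). Ventricular myocyte markers were present in all 12 libraries, with 3151 and 2999 CPM of Myl2 and 16.8 and 15.2 CPM of Irx4 in the control and Wnt gain-of-function means. Within the groups, 3 pairs were the most alike (control 2 and 3, Wnt gain-of-function replicates 1 and 2, and 3 and 4). Their mean chi-square per gene between counts was 3.1 to 3.45, against at least 12.9 in the other 27 within-group pairs. The median per gene set them less far apart, at 0.973 to 1.04 against 1.24 and above, with control 4 and 5 at 1.24. Sampling noise alone gives a mean of 1 and a median well below 1. By the mean, the 3 pairs differed by more than noise. They were counted as separate libraries, but no label says whether a pair shares an embryo. A clustering cut at a chosen number of 3 sets also put the libraries into sets of 4 that cut across the genotypes. These sets are described with the spread of the guidance genes further on. Results are given with the sets as a block, and without replicate 5, where these change them.

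The co-receptor Nrp1 and the ephrin Efna5 were the most abundant guidance transcripts per length of gene. Levels were compared between genes as CPM, counts scaled to a common library size, divided by the kilobases of annotated exon, an approximate scale because the annotation holds exons that these tissues may not use. In control libraries Nrp1, a co-receptor of class 3 semaphorins and of vascular endothelial growth factor, stood at 50.05 CPM per kb and Efna5, a membrane-anchored ligand of EphA receptors, at 48.1 CPM per kb. The ranges of these genes over the control libraries overlapped, and both lay above the range of every other guidance gene. Efna1, the other ephrin-A ligand, followed at 27.5 CPM per kb, and Epha7, a receptor of such ligands, at 18.6 CPM per kb. A group of genes at close levels came next, with Unc5b at 10.5, Ephb4 at 10.3, Ntn1 at 9.31 and Efnb2 at 8.31 CPM per kb, and the ranges of neighbours in this order overlapped. At the low end were Sema3f at 0.348, Ephb2 at 0.334, Sema3e at 0.260 and Sema4a at 0.101 CPM per kb. Sema4a, a membrane semaphorin, had 3 to 21 counts per library, missed the low-count filter and was the 1 gene not tested. Bulk RNA cannot tell fewer cells of a type from less RNA per cell, which holds for every level given here.

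**Figure D1:**
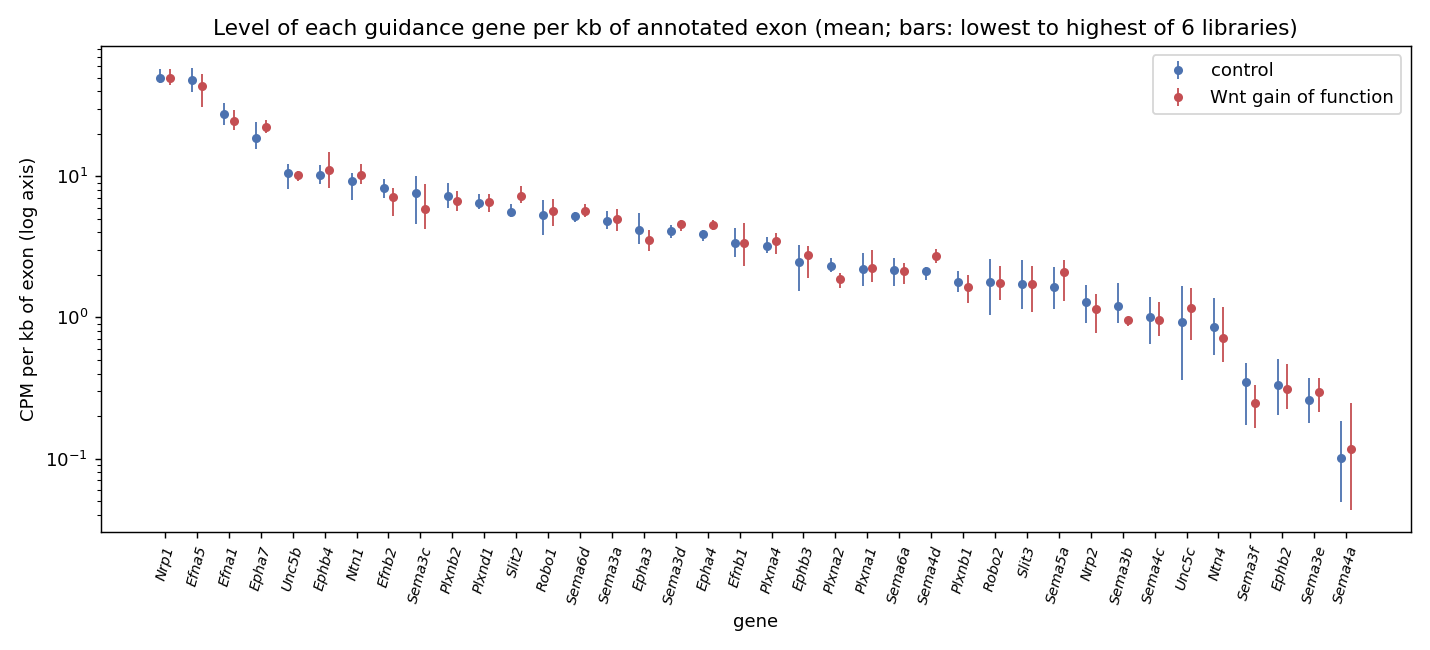
Level of the 38 guidance genes per kb of annotated exon in control (blue) and Wnt gain-of-function libraries (red), on a log axis, with the mean as a point and the lowest to highest of 6 libraries as a bar. Nrp1 and Efna5 lead at 50.05 and 48.1 CPM per kb in controls, and the ranges of the genotypes overlap for all genes but Slit2, Sema4d and Plxna2.

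No guidance gene was called between the genotypes, and Slit2, Sema4d and Plxna2 came closest. None of the 37 tested passed an adjusted p under 0.05 in edgeR's quasi-likelihood test, where 0.501% of all 14774 tested genes were called (0.433% higher and 0.0677% lower). Every tested member lay between a log2 fold change of -0.50 (Sema3f) and 0.39 (Slit2). The median was -0.01, against 0.0013 over all tested genes, with 17 members above 0 and 20 below. At an unadjusted p under 0.05 there were 6 members, 4 higher and 2 lower, or 16.2%, where 6.3% of all tested genes reached that level (3.73% higher and 2.57% lower). The 6 were Slit2, Sema4d, Epha4 and Epha7 as higher and Plxna2 and Sema3b as lower. By family, the median log2 fold change was 0.04 over 11 semaphorins, -0.06 over 8 plexins and neuropilins, 0.04 over 4 Slit and Robo genes, -0.15 over 4 ephrins, 0.14 over 6 Eph receptors and 0.05 over 4 netrin and Unc5 genes. In 3 members, Slit2, Sema4d and Plxna2, the groups did not overlap, which held for 0.46% of all tested genes. DESeq2 called 2 members, Slit2 and Sema4d, both higher, limma-voom called 0, and DESeq2 called 1.08% of all genes. With Wnt gain-of-function replicate 5 left out, 1 member, Slit2, was called by edgeR beside 1.19% of all genes. In that fit 8 members had an unadjusted p under 0.05, where 7.7% of all genes did. None of the 38 passed in the authors' deposited table, where the smallest adjusted p was 0.110, for Slit2. The check genes Axin2 and Notum did not pass there either (authors' adjusted p = 0.0756 and 0.179), nor in limma-voom (adjusted p = 0.0982 and 0.177). A gene not called in these 2 settings need not be unchanged.

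**Figure D2:**
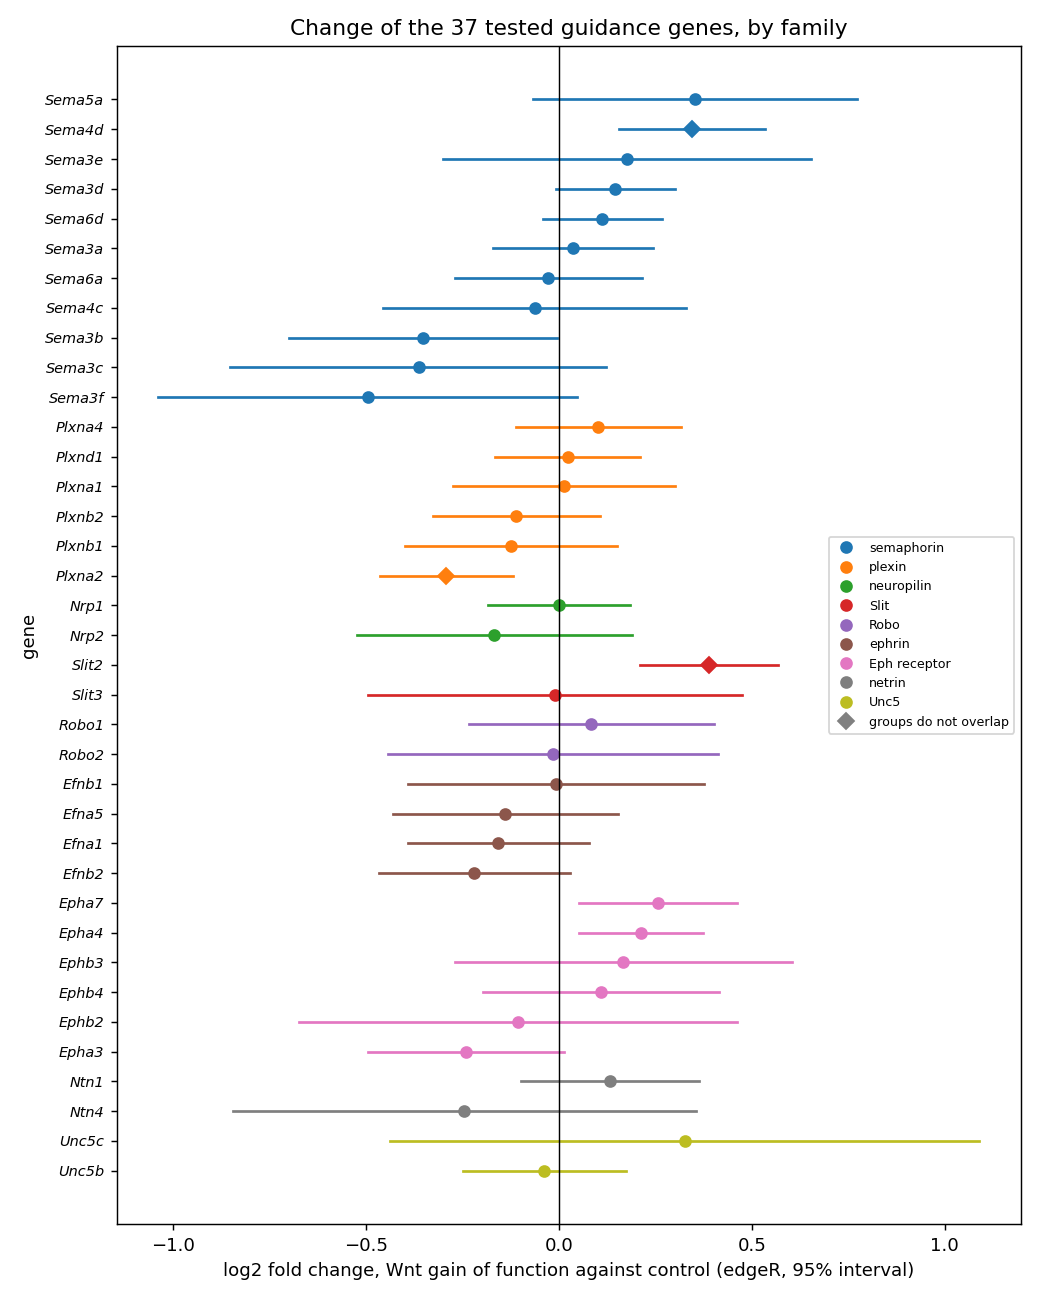
Log2 fold change of each of the 37 tested guidance genes, Wnt gain of function against control, with its 95% interval from edgeR, coloured by family; diamonds mark genes whose groups do not overlap. All points lie between -0.50 and 0.39, and the intervals of Slit2, Sema4d, Plxna2, Epha4, Epha7 and Sema3b leave out 0.

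The promoters of the 4 genes with the lowest p are shown because 3 of them were higher and 1 lower in the Wnt gain-of-function group, and Wnt signalling is known to act on DNA through TCF/LEF factors. Each line gives the 250 bases before the annotated start from RefSeq (GRCm38.p6), 5′ to 3′ on the gene's strand, with CG dinucleotides in capitals. Sema4d has 3 annotated starts in that table, and the one farthest upstream is shown.
Slit2, chr5:47982905-47983154, + strand: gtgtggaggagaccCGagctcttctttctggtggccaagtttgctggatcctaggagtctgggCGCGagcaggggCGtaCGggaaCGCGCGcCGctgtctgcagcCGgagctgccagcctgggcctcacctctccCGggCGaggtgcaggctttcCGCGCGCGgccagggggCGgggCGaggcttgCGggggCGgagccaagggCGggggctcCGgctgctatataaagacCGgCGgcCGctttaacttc
Sema4d, chr13:51756684-51756933, - strand: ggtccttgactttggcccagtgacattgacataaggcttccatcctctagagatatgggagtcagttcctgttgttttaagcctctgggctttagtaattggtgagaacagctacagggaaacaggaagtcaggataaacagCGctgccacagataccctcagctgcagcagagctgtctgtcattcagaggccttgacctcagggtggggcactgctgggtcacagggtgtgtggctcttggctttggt
Plxna2, chr1:194619579-194619828, + strand: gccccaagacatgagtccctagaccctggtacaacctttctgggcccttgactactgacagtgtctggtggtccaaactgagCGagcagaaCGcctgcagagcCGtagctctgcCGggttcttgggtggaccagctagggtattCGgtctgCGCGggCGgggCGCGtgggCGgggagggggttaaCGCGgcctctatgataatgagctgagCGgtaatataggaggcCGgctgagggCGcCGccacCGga
Epha4, chr1:77515089-77515338, - strand: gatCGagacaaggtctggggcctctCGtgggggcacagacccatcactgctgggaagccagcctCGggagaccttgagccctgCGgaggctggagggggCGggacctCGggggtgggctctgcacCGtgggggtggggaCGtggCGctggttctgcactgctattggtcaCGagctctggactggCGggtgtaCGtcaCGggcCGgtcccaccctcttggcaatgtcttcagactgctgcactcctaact

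These windows differed in base composition. The Slit2 window held 25 CG dinucleotides, Plxna2 18 and Epha4 14, while the Sema4d window held 1, against a median of 6 in the same window over the 32851 promoters of the table. All 300 bases of each promoter, which run to 50 bases past the start, were searched on both strands for CTTTGA, the core letters of a TCF/LEF site, and for the longer CTTTGAT, which contains it. Neither was found in the promoters shown. Over the 44 promoters of the 32 guidance genes in the table, 3 held CTTTGA, or 6.82%, and 1 held CTTTGAT, or 2.27%, against 16% and 3.73% of all promoters. Base composition differs between them, with a median GC of 64.4% in the guidance gene promoters and 52.4% in all promoters. The longer match lay in Nrp2, in this 30-base window, with the match in capitals.
Nrp2, chr1:62703160-62703189, + strand: tggcaccttaaCTTTGATcgcgcggccgcg
The match begins 146 bases before the start, and Nrp2 itself had a log2 fold change of -0.17. Sema3e and Sema6d held the shorter form. A match of letters is a description and shows no binding.

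Slit2, a secreted repulsive ligand of Robo receptors, had the lowest p of the guidance genes. Slit2 (ENSMUSG00000031558) ranged from 132 to 162 CPM in the control libraries (median 139) and 164 to 216 CPM in the Wnt gain-of-function libraries (median 182). Every Wnt gain-of-function library lay above every control library, with the smallest gap between Wnt gain-of-function replicate 1 and control 4. The library labelled replicate 5, whose genotype is in doubt, was at 168 CPM, and the other 5 were also all above the controls. If that library were a control, the groups would overlap, since Wnt gain-of-function replicates 1 and 2 were at 164 and 165 CPM. Its means were 141 ± 11.1 CPM for controls and 185 ± 22.2 CPM for Wnt gain of function (mean ± SD, n = 6 each), a log2 fold change of 0.39 ± 0.0844 (SE, edgeR adjusted p = 0.0569), which missed the threshold by little. Slit2 was called higher by DESeq2 (adjusted p = 0.00412) and in edgeR without Wnt gain-of-function replicate 5 (0.0296) and without control 4 (0.0413). In edgeR it was also called higher with the log2 of the summed CPM of Y-linked genes as a covariate (0.0287), without a low-count filter (0.0365) and with library set as a block (0.00269). Of all genes tested, 0.455% were called without control 4, 0.88% with the covariate and 0.393% without the filter. The other 18 of 24 alternatives left Slit2 above the threshold, at adjusted p-values reaching 0.403.

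The other Slit and the Robo receptors showed no such separation. Slit3, a second Robo ligand, was at 10.6 ± 3.36 CPM for controls and 10.4 ± 3.12 CPM for Wnt gain of function (mean ± SD, n = 6 each). Its log2 fold change of -0.01 had a 95% interval of -0.49 to 0.47, so a change of the size of that of Slit2 lies within it. Robo1, the more abundant receptor per length, was at 87.9 ± 19.5 CPM for controls and 93.1 ± 16.5 CPM for Wnt gain of function (mean ± SD, n = 6 each), and Robo2 was at 30.2 ± 9.71 CPM for controls and 29.9 ± 6.07 CPM for Wnt gain of function (mean ± SD, n = 6 each). Their log2 fold changes were 0.08 (95% interval -0.23 to 0.40) and -0.02 (-0.44 to 0.41). All Wnt gain-of-function libraries lay within the control range for Robo2, and all but 1 for Robo1.

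Among the 11 semaphorins tested, Sema4d alone had groups that did not overlap. Sema4d (ENSMUSG00000021451), a membrane-bound ligand of Plxnb1 also known from immune cells, ranged from 14.2 to 17.6 CPM in the control libraries (median 16.5) and 18.6 to 23.3 CPM in the Wnt gain-of-function libraries (median 20.9). All 6 Wnt gain-of-function libraries exceeded all 6 controls, the library labelled replicate 5 included, at 22.1 CPM. If that library were a control, the groups would overlap, since Wnt gain-of-function replicate 1 was at 18.6 CPM. The log2 fold change was 0.34 ± 0.0888 (SE, edgeR adjusted p = 0.156), and Sema4d was called higher by DESeq2 (0.0362) and in edgeR with the library sets as a block (0.0358), but in none of the other 22 alternatives. Its receptor Plxnb1 was at 17.2 ± 2.31 CPM for controls and 15.8 ± 2.84 CPM for Wnt gain of function (mean ± SD, n = 6 each), a log2 fold change of -0.12 with an interval of -0.40 to 0.15.

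Summed markers of macrophages, which can also express Sema4d, and of endothelium lay above the highest control in 4 of the 6 Wnt gain-of-function libraries each. The summed level of 9 macrophage markers was 63.6 to 89.4 CPM over controls and 67.3 to 114 CPM over the Wnt gain-of-function group, with 7 of 9 above 0 in log2 fold change. That of 12 endocardial and endothelial markers was 864 to 969 and 940.1 to 1029 CPM, with 8 of 12 above 0. No marker of either list was at 0 counts in all libraries or called by edgeR. At an edgeR unadjusted p under 0.05 there were 4 of the 9 macrophage and 1 of the 12 endothelial markers, all higher, where 6.3% of all tested genes reached it. The lowest macrophage sum of the Wnt gain-of-function group, 67.3 CPM, belonged to replicate 5, whose Sema4d level of 22.1 CPM was the second highest of the group. The part of these cells in the Sema4d and Slit2 values was not tested.

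The secreted class 3 semaphorins went in both directions and none passed in any of the 24 alternatives. Sema3d, a cue for endothelial cells, ranged from 31.4 to 38.7 CPM in the control libraries (median 35.4) and 35.3 to 41.8 CPM in the Wnt gain-of-function libraries (median 39.9), with 4 Wnt gain-of-function libraries above the highest control. Its log2 fold change was 0.15 ± 0.0731 (SE, edgeR adjusted p = 0.848). Sema3b, a second secreted ligand of neuropilins, ranged from 4.33 to 8.44 CPM in the control libraries (median 5.35) and 4.14 to 4.80 CPM in the Wnt gain-of-function libraries (median 4.59), and its control libraries spread far more than the others. Its log2 fold change was -0.35 ± 0.163 (SE, edgeR adjusted p = 0.781), and 1 library, control 3 at 8.44 CPM, stood apart: without it the value was -0.20. Sema3f, a ligand that prefers Nrp2, was low in every library, from 0.892 to 2.46 CPM in the control libraries (median 1.86) and 0.854 to 1.73 CPM in the Wnt gain-of-function libraries (median 1.28), with a log2 fold change of -0.50 ± 0.256 (SE, edgeR adjusted p = 0.872).

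Sema3c, which acts on cells that septate the outflow tract, split within both groups. Sema3c ranged from 32.9 to 72.1 CPM in the control libraries (median 61.6) and 30.1 to 62.7 CPM in the Wnt gain-of-function libraries (median 40.8). Control 2 and 3, at 33.2 and 32.9 CPM, had less than 60.4 CPM, the lowest of the other 4 controls, and Wnt gain-of-function replicate 5, at 62.7 CPM, lay among those. The log2 fold change of -0.36 ± 0.226 (SE, edgeR adjusted p = 0.988) became -0.51 without replicate 5 (edgeR adjusted p = 0.531). Sema3a, a repellent of cardiac sympathetic axons, was at 67.1 ± 6.79 CPM for controls and 68.8 ± 9.90 CPM for Wnt gain of function (mean ± SD, n = 6 each), and Sema3e, the ligand of Plxnd1, at 2.41 ± 0.802 CPM for controls and 2.75 ± 0.534 CPM for Wnt gain of function (mean ± SD, n = 6 each). Their log2 fold changes were 0.04 (95% interval -0.17 to 0.24) and 0.18 (-0.30 to 0.65), and that of Sema3a turned sign without Wnt gain-of-function replicate 5 or 6.

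The membrane semaphorins other than Sema4d also missed the threshold in edgeR and in all 24 alternatives, apart from Sema4a, which was not tested. Sema5a, a transmembrane protein with thrombospondin repeats, ranged from 21.4 to 42.4 CPM in the control libraries (median 28.0) and 24.3 to 47.6 CPM in the Wnt gain-of-function libraries (median 39.8). Its log2 fold change of 0.35 ± 0.196 (SE, edgeR adjusted p = 0.939) was as large as that of Sema4d, but its SE was larger and the groups overlapped in 4 Wnt gain-of-function libraries. Sema6d, a transmembrane semaphorin with known roles in heart looping and trabeculation, was at 55.6 ± 3.13 CPM for controls and 60.1 ± 5.30 CPM for Wnt gain of function (mean ± SD, n = 6 each), a log2 fold change of 0.11. Sema6a and Sema4c, further transmembrane semaphorins, had log2 fold changes of -0.03 and -0.06, with intervals of -0.27 to 0.21 and -0.46 to 0.33.

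Of the semaphorin receptors, Plxna2 was lower in Wnt gain-of-function libraries without overlap. Plxna2 (ENSMUSG00000026640), a plexin that serves class 3 semaphorins together with neuropilins, ranged from 35.9 to 45.4 CPM in the control libraries (median 39.0) and 27.6 to 35.6 CPM in the Wnt gain-of-function libraries (median 32.5). The highest Wnt gain-of-function library lay just under the lowest control, and the library labelled replicate 5 was at 31.8 CPM. If that library were a control, the groups would overlap, since Wnt gain-of-function replicate 4 was at 35.6 CPM. Its means were 39.7 ± 3.35 CPM for controls and 32.4 ± 2.75 CPM for Wnt gain of function (mean ± SD, n = 6 each), a log2 fold change of -0.29 ± 0.0813 (SE, edgeR adjusted p = 0.211). Plxna2 was called lower by edgeR with the library sets as a block (0.0214) and with the Y-linked covariate (0.037), and in none of the other 22 alternatives, DESeq2 included (0.0576).

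Nrp1 was at nearly the same mean in both genotypes. It ranged from 451 to 562 CPM in the control libraries (median 464) and 434 to 560.0 CPM in the Wnt gain-of-function libraries (median 467), and its 95% interval of -0.18 to 0.18 on the log2 scale bounds the difference. Nrp2, the partner receptor for Sema3f, was at 15.2 ± 3.59 CPM for controls and 13.6 ± 2.75 CPM for Wnt gain of function (mean ± SD, n = 6 each), a log2 fold change of -0.17 with an interval of -0.53 to 0.19. The endothelial plexin Plxnd1 was at 47.4 ± 5.04 CPM for controls and 48.2 ± 5.08 CPM for Wnt gain of function (mean ± SD, n = 6 each), with a 95% interval of the log2 fold change of -0.17 to 0.21. Plxna1, Plxna4 and Plxnb2, further plexins, had log2 fold changes of 0.01, 0.10 and -0.11, and their groups overlapped.

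The 4 ephrin ligands all lay below 0 and 4 of the 6 Eph receptors above it, though edgeR and DESeq2 called none of these 10 genes and Efnb1 lay at 0.00849 when scaled by library size alone. Epha4 (ENSMUSG00000026235), a receptor that binds ephrins of both classes, ranged from 28.2 to 33.6 CPM in the control libraries (median 32.1) and 33.5 to 39.7 CPM in the Wnt gain-of-function libraries (median 36.1). In 5 of 6 Wnt gain-of-function libraries it exceeded the highest control, and the log2 fold change was 0.21 ± 0.0752 (SE, edgeR adjusted p = 0.464). Epha7 (ENSMUSG00000028289) ranged from 154 to 240.5 CPM in the control libraries (median 176) and 201 to 248 CPM in the Wnt gain-of-function libraries (median 218). Here control 1, at 240.5 CPM, lay above 5 of the 6 Wnt gain-of-function libraries, while the other 5 controls were below all of them. The log2 fold change of Epha7 was 0.26 ± 0.0967 (SE, edgeR adjusted p = 0.526), and 0.34 without control 1 (0.0816).

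Epha3, a receptor known from the endocardial cushions that form the valves, went the other way. Epha3 ranged from 28.7 to 48.0 CPM in the control libraries (median 33.9) and 25.8 to 36.3 CPM in the Wnt gain-of-function libraries (median 30.1), a log2 fold change of -0.24 ± 0.12 (SE, edgeR adjusted p = 0.848). Of its ligands, Efna1 was at 50.3 ± 6.86 CPM for controls and 45.2 ± 7.0 CPM for Wnt gain of function (mean ± SD, n = 6 each) and Efna5 at 194 ± 29.5 CPM for controls and 176 ± 36.8 CPM for Wnt gain of function (mean ± SD, n = 6 each), with log2 fold changes of -0.16 and -0.14. With 1 library left out, Epha3 went to -0.15 (control 1), Efna1 to -0.10 (control 3) and Efna5 to -0.08, -0.08 and -0.06 (control 1 and Wnt gain-of-function replicates 3 and 4). Efnb2, which marks arterial endothelium, ranged from 47.9 to 65.9 CPM in the control libraries (median 57.4) and 35.6 to 56.7 CPM in the Wnt gain-of-function libraries (median 52.0), and its log2 fold change was -0.22 ± 0.116 (SE, edgeR adjusted p = 0.899), or -0.14 without Wnt gain-of-function replicate 2. Its venous partner receptor Ephb4 was at 47.6 ± 6.59 CPM for controls and 51.4 ± 12.6 CPM for Wnt gain of function (mean ± SD, n = 6 each), a log2 fold change of 0.11 with an interval of -0.20 to 0.41. Beside Efnb2, the summed level of 6 other arterial endothelial markers was 256 to 378 CPM over controls and 184 to 317 CPM over the Wnt gain-of-function group. Of the 6, 4 lay below 0 and none was at 0 counts, while Gja4 and Cxcr4 lay above 0, at 0.29 and 0.75. EdgeR called none of them, and DESeq2 called Hey1 lower (adjusted p = 0.0415). Most of the sum came from Gja5, at 234.5 and 184.2 CPM in the control and Wnt gain-of-function means. The part of arterial endothelium in the Efnb2 values was not tested. Ephb3 and Ephb2, receptors of ephrin-B ligands, had log2 fold changes of 0.17 and -0.11, and Efnb1 of -0.01.

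The netrin and Unc5 genes were not called in edgeR or in any alternative. Ntn1, the main netrin of these ventricles by level per length, was at 58.5 ± 8.61 CPM for controls and 64.1 ± 8.41 CPM for Wnt gain of function (mean ± SD, n = 6 each), with a 95% interval of the log2 fold change of -0.10 to 0.36. Ntn4, a basement membrane netrin, was at 3.18 ± 1.32 CPM for controls and 2.67 ± 0.978 CPM for Wnt gain of function (mean ± SD, n = 6 each), with a 95% interval of the log2 fold change of -0.85 to 0.36. Unc5b, an endothelial netrin receptor, was at 65.9 ± 10.6 CPM for controls and 64.2 ± 4.44 CPM for Wnt gain of function (mean ± SD, n = 6 each), with a 95% interval of the log2 fold change of -0.25 to 0.17. Unc5c, a second receptor of the family, had the widest interval of all members tested, -0.44 to 1.09 around 0.33, and its control libraries alone spanned 6.84 to 31.8 CPM. Its value was 0.57 without control 1, 0.17 and 0.16 without control 2 or 3, and 0.21 without Wnt gain-of-function replicate 3. That of Ntn4 (-0.25) was -0.05 without control 4 and -0.45 without Wnt gain-of-function replicate 4, and that of Ntn1 (0.13) was 0.05 without control 1.

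**Figure D3:**
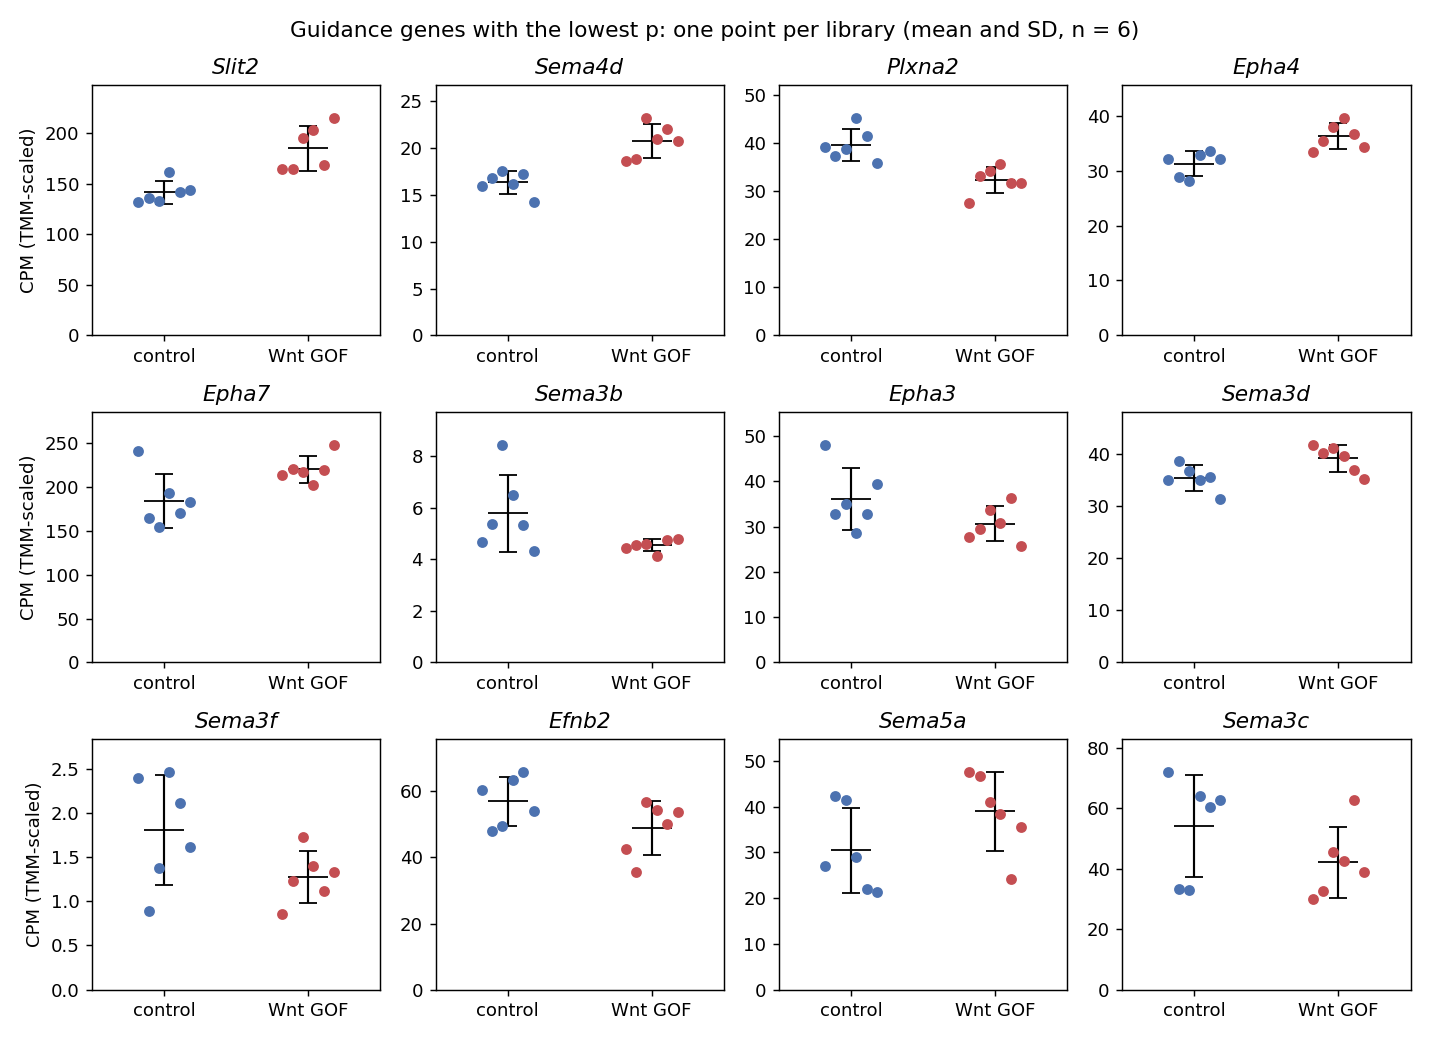
CPM in each library for the 12 guidance genes with the lowest p, control in blue and Wnt gain of function (Wnt GOF) in red, replicates 1 to 6 from left to right, with mean and SD in black and axes that start at 0. Slit2, Sema4d and Plxna2 separate the groups, while Sema3f, Sema5a and Sema3c spread widely within them.

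Within the genotypes, many guidance genes varied together with the 3 library sets. The sets were found by clustering these libraries on their deviations from their group means over all tested genes. Their number, 3, was chosen beforehand. Because the sets come from these same libraries, the following is a description. Each set holds 4 libraries, 2 of each genotype, and set 2 consists of control 2 and 3 and Wnt gain-of-function replicates 1 and 2. Of the 37 tested members, 15 differed by more than 0.5 on the log2 scale between the highest and lowest set mean, or 40.5%, against 27.6% of all tested genes. Unc5c differed most, by 1.27, with 6.84 and 7.35 CPM in control 2 and 3 and 18.8 to 31.8 CPM in the other 4 controls. In the Wnt gain-of-function group the same gene was at 13.3 and 16.2 CPM in replicates 1 and 2 and at 22.4 to 30.8 CPM in the rest.

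By the mean deviation of each set, Slit3, Sema3c, Ephb3 and Ephb2 were also low in set 2, and Sema5a, Efna5, Efna1 and Nrp1 were high there. In Ephb3, Ephb2, Efna5 and Efna1 single libraries of set 2 overlapped with the other 8, as with Efna5 at 235.9 CPM in control 1. Slit3 was at 7.54, 7.0, 6.68 and 7.03 CPM in the 4 libraries of set 2 and at 9.22 to 15.5 CPM in the other 8. Nrp1, in contrast, was at 545 to 562 CPM in set 2 and at 434 to 474 CPM in the other 8. How many of all tested genes part set 2 from the other 8 libraries in this way was not counted. Marker sums moved with the same set of libraries. The 8 atrial markers summed to 3430.3 to 4922 CPM in set 2 and to 5173 to 6285 CPM elsewhere, and the 8 epicardial markers to 303 to 343 CPM against 370.3 to 436 CPM. The atrial sum mainly follows Myl7, Myl4 and Nppa, at 2034, 1902 and 815 CPM in the control means. Sln and Kcna5, at 12.2 and 3.62 CPM, hardly count in it, so it need not follow atrial cells. The 10 ventricular markers went the other way, at 29972 to 30804 CPM in set 2 and 22958 to 28055 CPM elsewhere, and the 9 erythroid markers summed to 9702 to 12924 CPM in set 2 and 13906 to 91104 CPM elsewhere. No marker of these 4 lists was at 0 counts in all libraries. The labels give no batch or dissection that matches the sets, and the part of cell composition in the guidance gene values was not tested.

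Once the sets entered edgeR as a block, it gave 14 members an unadjusted p under 0.05, where 12.6% of all tested genes reached it, and called 3, Slit2 and Sema4d as higher and Plxna2 as lower, where 2% of all genes were called. Epha7 (edgeR adjusted p = 0.0588), Efnb2 (0.0639) and Epha4 (0.068) came closest without passing. With the Y-linked covariate 10 members had an unadjusted p under 0.05, where 8.33% of all genes did, and without control 2, a library of set 2, also 10, against 5.67%. Because the sets were found on these libraries, p-values with them as a block can be too small. When each of the 3 most alike library pairs was summed into 1 sample, edgeR called 0 members and 0.00662% of all genes, and Slit2 had an adjusted p of 0.403. The check genes Axin2 and Notum also missed the threshold in that fit (edgeR adjusted p = 0.22 and 0.208).

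**Figure D4:**
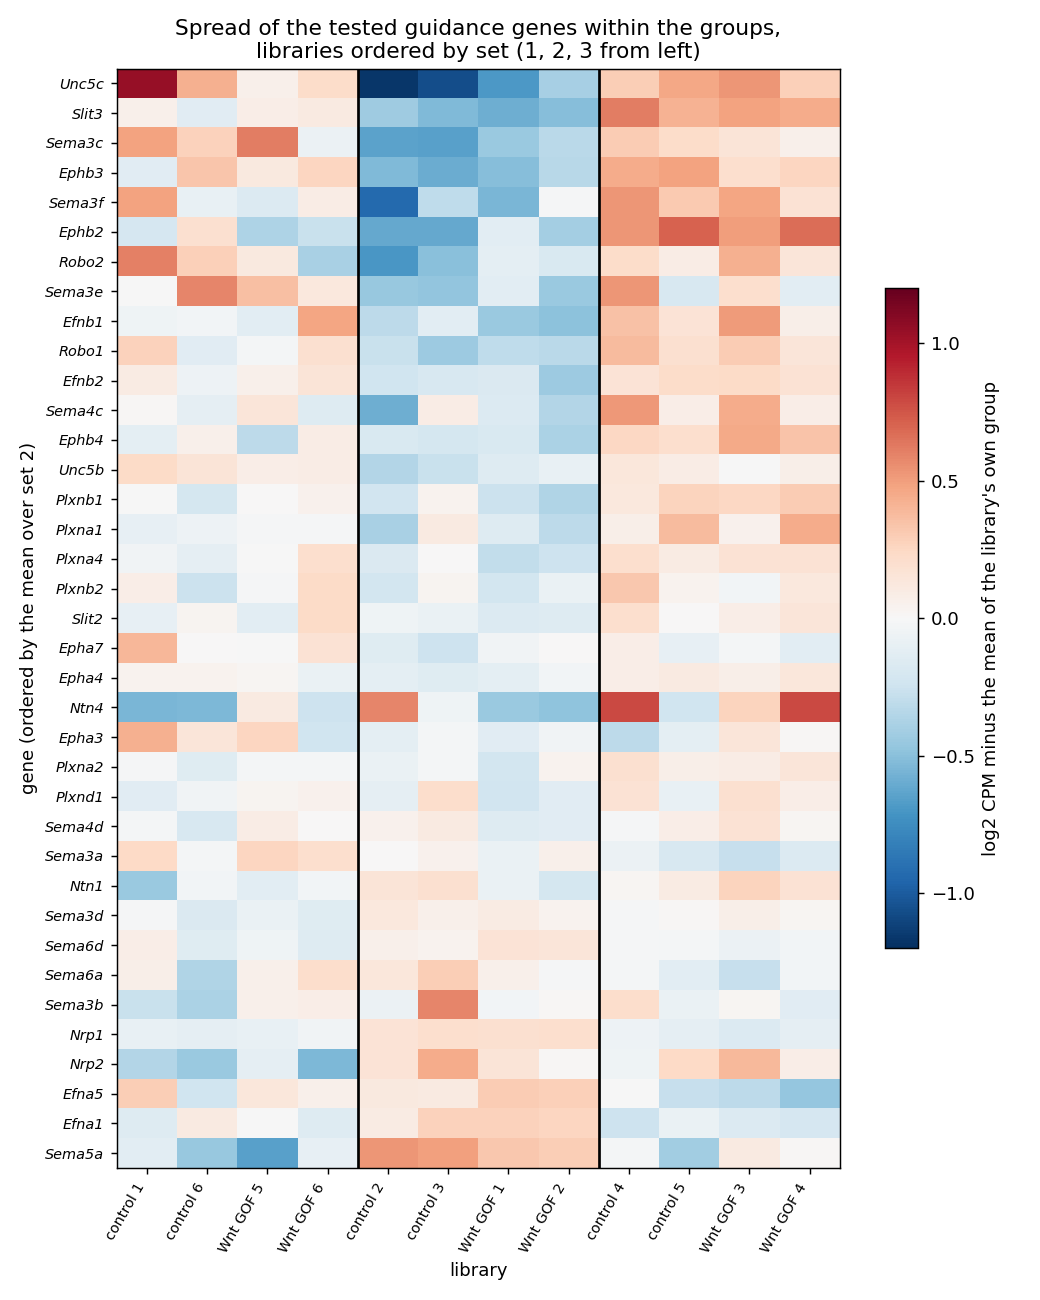
Log2 CPM of the 37 tested guidance genes minus the mean of each library's own genotype, with libraries (GOF, gain of function) in columns ordered by set (black lines between sets) and genes ordered by their mean over set 2. Unc5c, Slit3 and Sema3c are low in the 4 libraries of the middle set and Sema5a is high there, in both genotypes.

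Other genes of the same families and their transducers inside the cell were measured as context. Of 40 further members of the guidance families, 24 were tested and 0 were called by edgeR, limma-voom or DESeq2, with 3 at an unadjusted p under 0.05, or 12.5%, against 6.3% of all tested genes. Sema5b, a membrane semaphorin close to Sema5a, had a log2 fold change of -0.77 ± 0.266 (SE, edgeR adjusted p = 0.433), the ligand Efnb3 of -0.27 ± 0.115 (0.663) and its receptor Ephb1 of 0.84 ± 0.376 (0.738). The other 16, Slit1, Robo3 and Unc5a among them, had too few counts to test. Of 46 intracellular transducers, 44 were tested, edgeR and limma-voom called 0 and 3 had an unadjusted p under 0.05, or 6.82%, close to the 6.3% of all tested genes. By DESeq2, which called 1.08% of all genes, a single one was called, Dpysl3 (adjusted p = 0.032).

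Dpysl3, a cytoskeletal protein of the collapsin response mediator family known as a target of semaphorin signals, missed the threshold in edgeR and passed it in 3 of 24 alternatives, of which DESeq2 and the library set block kept all 12 libraries and 1 left out a library. It ranged from 498 to 539 CPM in controls and from 690.3 to 716 CPM in 5 of the Wnt gain-of-function libraries, but stood at 469 CPM in replicate 5, below every control. Its log2 fold change was 0.36 ± 0.0926 (SE, edgeR adjusted p = 0.156) with all libraries and 0.44 without replicate 5, where it rose (edgeR adjusted p = 0.000643). It also rose with the library sets as a block (0.0285). Crmp1, of the same family, had a log2 fold change of -0.42 ± 0.142 (0.398), and Tiam1, an activator of the GTPase Rac, of 0.28 ± 0.125 (0.709).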

How the data were processed

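Bulk RNA-seq of 12 ventricle libraries was analysed. The deposited table gives whole-number counts by Ensembl ID. The submitters' processing notes name Subread, featureCounts and edgeR, with versions, genome build, annotation and strand setting not given in the sources used here, so genes that overlap a neighbour are uncertain. Of 41422 rows, 622 repeated an ID and were left out. A second table deposited by the authors holds log2 fold changes and p-values of their own comparison, per the file headers.

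Counts were tested in R 4.3.3 with edgeR 4.0.16 (filterByExpr, minimum count 10; TMM; robust glmQLFit and glmQLFTest with genotype as the only term; Benjamini-Hochberg over 14774 genes, threshold 0.05). Tested on simulated data with known changes, this fit called 108 of 109 genes changed by 2 on the log2 scale, 63 of 82 changed by 1 and 8 of 14426 unchanged ones. Smaller changes, such as those of the members, were not simulated. The simulated libraries were drawn independently, without the alike pairs and library sets of the real ones, so these rates need not hold for the real libraries. SE values come from the F statistic. CPM use TMM-scaled sizes, and exon lengths are unions of GENCODE M21 exons. Counts of libraries of a group were compared by chi-square per gene. Members, lists and alternatives were chosen with earlier results of these data known. Full values were given to the 12 members of lowest p, and to the called genes, or the 3 of lowest p, of each of 2 context lists. Alternatives were the replicate number or the library sets as a block, other scalings (DESeq2 size factors, library size alone, upper quartile), DESeq2 1.42.0, limma 3.58.1 voom, no or a stricter filter (1 CPM in 6 libraries), haemoglobin genes left out, a Y-linked covariate, summed closest pairs and each library left out.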

Additional observations from a re-analysis of the deposited data

Results flagged for a closer look

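Values of 1 library far from the other 5 of its group were looked for with Dixon's test in 114 groups, over 47 genes and 10 marker sums. The test flagged 3 of the 114, fewer than chance alone would give at about 1 in 20. No member was among them. Dpysl3 in Wnt gain-of-function replicate 5, at 469 CPM, lay below the other 5, which ranged from 690.3 to 716 CPM. The 9 erythroid markers summed to 91104 CPM in the same library, against 12191 to 37699.7 CPM in the other 5. In Wnt gain-of-function replicate 6 the 8 mural markers summed to 1752 CPM, while the other 5 had 1528 to 1586 CPM.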

How the results depend on the processing

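The counts of called members were 0 higher and 0 lower in edgeR. Higher members numbered 2 in DESeq2, 1 without a low-count filter, 1 with the Y-linked covariate, 2 with the library sets as a block and 0 to 1 with 1 library left out. Lower members numbered 1 with the Y-linked covariate, 1 with the library sets as a block and 0 with any library left out. Members at an unadjusted p under 0.05 numbered 6, but 10 with the Y-linked covariate, 14 with the library sets as a block and 5 to 10 with 1 library left out, 10 being the count without control 2. Further guidance genes and transducers called numbered 0, but 1 in DESeq2, 1 with the library sets as a block and 0 to 1 with 1 library left out. Calls over all genes numbered 74, but 160 in DESeq2, 6 in limma-voom, 130 with the Y-linked covariate, 295 with the library sets as a block, 1 with the closest pairs summed, and 39 to 177 with 1 library left out, 177 being the count without Wnt gain-of-function replicate 5. The share of calls that were higher was 86.5% in the fit reported, 66.1% with the library sets as a block and 50% in limma-voom.

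Slit2, Sema4d, Plxna2, Epha4, Epha7 and Sema3b kept their direction in all 24 alternatives each. Log2 fold changes near 0 changed sign. Nrp1 was at 0.0102 with library size alone, 0.000795 without a filter, 0.0311 with the Y-linked covariate, 0.0224 with closest pairs summed and -0.0400 to 0.0442 with 1 library left out. Plxna1 was at -0.0534 with the covariate, -0.0228 with pairs summed and -0.0900 to 0.0983 with 1 left out, and Plxnd1 at -0.00737 with the covariate and -0.0177 to 0.0693 with 1 left out. Slit3 was at 0.00291 with library size alone, 0.00503 in limma-voom and -0.109 to 0.135 with 1 left out. Robo2 was at 0.0251 in limma-voom, 0.0216 with the library sets and -0.125 to 0.114 with 1 left out. Efnb1 was at 0.00849 with library size alone and -0.118 to 0.0865 with 1 left out, and Sema6a at 0.0437 with pairs summed and -0.0948 to 0.0394 with 1 left out. With 1 library left out, Sema3a spanned -0.0177 to 0.0868, Sema4c -0.162 to 0.0563, Ephb2 -0.268 to 0.0505 and Unc5b -0.0981 to 0.00402. The cause was not tested. Small log2 fold changes also moved by over 1.5 times with 1 library left out, spanning 0.00779 to 0.166 for Robo1, 0.0614 to 0.267 for Ephb3, 0.00853 to 0.182 for Ephb4, 0.0812 to 0.317 for Sema3e, -0.251 to -0.0641 for Nrp2, -0.190 to -0.0553 for Plxnb1, -0.161 to -0.0401 for Plxnb2 and 0.0610 to 0.159 for Plxna4.

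No label says whether replicate numbers shared by the genotypes pair the libraries, and the counts cannot settle it. Correlations of deviations between libraries of the same number ran from -0.363 to 0.445. Of the libraries, 2 of 6 control and 1 of 6 Wnt gain-of-function ones correlated best with their own number. With the replicate block, edgeR called 0 members and 55 genes in all, and Robo2 was at 0.0229. At these depths the median SD of log2 CPM within a group was 0.233 in control and 0.256 in Wnt gain-of-function libraries over the members.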

Other observations

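Markers of the other cell types that ventricle tissue holds were summed per library. The 10 markers of cushion mesenchyme and fibroblasts summed to 2678 to 3636 CPM over controls and 2302 to 3122 CPM over the Wnt gain-of-function group, with 9 of 10 below 0 in log2 fold change and none called by edgeR. The 8 mural cell markers summed to 1617 to 2009 and 1528 to 1752 CPM, and 1 of them, the pericyte gene Rgs5, was called lower by edgeR. Of the 10 neuronal and Schwann cell markers, 5 had enough counts to test, and the list summed to 27.3 to 45.6 and 27.1 to 39.6 CPM. Among the 10 ventricular markers 1, the transcription factor gene Hey2, was called lower by edgeR.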
